A study of Mus musculus with 15 samples.

Results

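Clusterin (gene symbol Clu, ENSMUSG00000022037) was followed in blood-forming stem cells (hematopoietic stem cells, HSCs) that had been sorted from the bone marrow of mice. It is 1 gene of the 20696 in the deposited expression table, on the plus strand of GRCm38 chromosome 14, from 65968483 to 65981547. It was chosen by its FPKM over the 3 groups, whose differences were known from earlier results of these data, so its group levels and the ranking of genes by likeness to it are descriptions, given with no test.

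Clusterin, also called apolipoprotein J, is a secreted glycoprotein that holds unfolded proteins in solution outside the cell without using ATP. It travels on lipoprotein particles, binds the terminal complement complex and keeps it from inserting into membranes, and enters cells through lipoprotein receptors. Inside cells it is folded and cleaved into an alpha and a beta chain on its way out, and forms that stay inside have been reported to bind Bax and the Ku proteins. In mouse HSCs, Clu is one of the genes listed as higher with age.

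Messenger RNA was measured by bulk RNA sequencing of 15 libraries in 3 groups of 5. They were HSCs labelled as from aged Thbs1 knockout mice of 18 months (the labelled knockouts), from aged control mice of 18 months and from young control mice of 3 months. Thbs1 encodes thrombospondin 1, a matrix glycoprotein. The labels give the knockout only by the gene's name, and the sources used here do not give its allele, the mouse strain, or whether each library came from its own mouse. All p-values therefore measure the spread among libraries, which may be technical in part. Values are FPKM (fragments per kilobase of gene, scaled to library size), the authors' unit, and differences are on the scale log2(FPKM + 1) unless another scale is named.

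Some limits of the libraries bear on everything that follows. In the labelled knockouts, replicates 1 to 5, Thbs1 had 2.53, 1.69, 17.89, 12.69 and 17.25 FPKM. It had 0.20, 0.01, 0.62, 8.75 and 4.90 FPKM in the aged controls and 0.76, 0.70, 13.38, 2.42 and 3.95 FPKM in the young controls, also from 1 to 5. Thbs1 was thus not lower in the libraries labelled knockout, and every direction given for them is for the label and not for a measured loss of Thbs1. In each group every female library, with sex read from the library names, had more Thbs1 than every male library. The female libraries were replicates 3 to 5 in labelled knockouts and young controls, and replicates 4 and 5 in aged controls. Groups were read from the sample titles in the table's header. The descriptions at GEO tie library names to other titles: they match the header for 5 columns and differ from it for 10. Reads in genes, recovered from the rounding of the values, ranged from 16.64e6 to 28.62e6 per library. Protein-coding genes took 93.6% of reads in labelled knockout 2 and 96.1% in labelled knockout 5, against 97.3% to 98.4% in the other 13 libraries. All 10 HSC markers passed the filter on low values, and their summed level was 760 to 982 FPKM in labelled knockouts, 1063 to 1194 FPKM in aged controls and 874 to 944 FPKM in young controls.

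Clu was highest in aged controls, lowest in young controls and in between in the libraries labelled knockout. It had 66.81, 55.64, 40.49, 47.45 and 71.43 FPKM in labelled knockouts 1 to 5. It had 161.01, 144.78, 145.82, 117.67 and 102.73 FPKM in aged controls 1 to 5. It had 16.25, 20.06, 17.25, 20.80 and 15.55 FPKM in young controls 1 to 5. No 2 groups overlapped, since the lowest aged control lay above the highest labelled knockout and the lowest labelled knockout lay above the highest young control. In bulk samples, fewer cells with the transcript and less of it per cell cannot be told apart.

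The group means were 56.4 ± 12.9 FPKM in labelled knockouts, 134 ± 23.6 FPKM in aged controls and 18.0 ± 2.33 FPKM in young controls (SD, n = 5 each). The coefficient of variation was 22.9% in labelled knockouts, 17.6% in aged controls and 13% in young controls. The values rested on 2722 to 6007 reads in labelled knockouts, 8237 to 12472 in aged controls and 1036 to 2119 in young controls. As a share of the recovered reads in genes, Clu again showed no overlap, with 151 to 236 parts per 1e6 in labelled knockouts, 364 to 569 in aged controls and 56.9 to 74.0 in young controls. By level, Clu ranked 964 to 1540 among the 11345 genes tested in the labelled knockouts, 315 to 533 in the aged controls and 3130 to 3948 in the young controls.

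**Figure D1:**
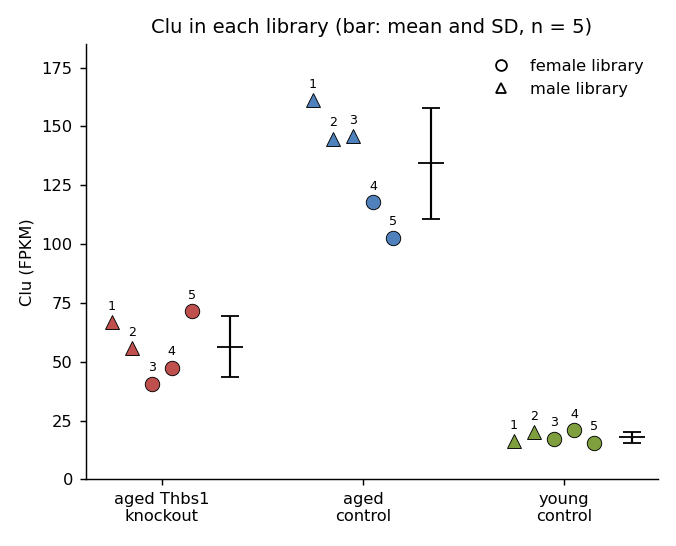
Clu in FPKM (vertical axis, linear from 0) in each of the 15 libraries, with circles for female and triangles for male libraries, the replicate number above each point, and the mean with its SD (n = 5) at the right of each group. The labelled knockouts lie between 40.49 and 71.43 FPKM, all under the lowest aged control at 102.73 FPKM and over the highest young control at 20.80 FPKM.

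The ratio of the group means was 0.419 for labelled knockouts over aged controls. Any labelled knockout library had 0.251 to 0.695 of the level of any aged control. The mean of aged controls was 7.47 times that of young controls, with 4.94 to 10.4 times over single pairs of libraries. The mean of labelled knockouts was 3.13 times that of young controls, with 1.95 to 4.59 times over single pairs. On the log2 scale the differences were -1.25 for labelled knockouts minus aged controls, 2.82 for aged minus young controls and 1.57 for labelled knockouts minus young controls (SE 0.16 each). Among the 11345 tested genes these placed Clu 43rd from the bottom in the first comparison, and 9th and 19th from the top in the other two. The labelled knockouts stood 55.7% of the way from the young to the aged controls on the log2 scale and 33.0% of the way in FPKM.

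These differences depended on the source of the group labels. When the descriptions decided the group of each column, Clu averaged 76.0 ± 33.7 FPKM in labelled knockouts, 35.2 ± 24.1 FPKM in aged controls and 97.6 ± 72.8 FPKM in young controls (SD, n = 5 each). The difference of labelled knockouts minus aged controls became 1.23, that of aged minus young controls became -1.13, and that of labelled knockouts minus young controls became 0.10. Under that grouping the spread within a group was wide, with a range of 40.49 to 117.67 FPKM in labelled knockouts, 15.55 to 66.81 FPKM in aged controls and 16.25 to 161.01 FPKM in young controls. Everything else is given by the titles.

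Few genes shared the order seen in Clu. Of the 11345 tested genes, 8 (0.0705%) had every aged control above every labelled knockout and every labelled knockout above every young control. Apart from Clu these were Rcvrn (recoverin, a calcium sensor of photoreceptors), Reep2 (a protein of the endoplasmic reticulum membrane), Pde9a (a cyclic GMP phosphodiesterase), Rhoj (a small GTPase), Zg16 (a secreted lectin), Socs3 (an inhibitor of JAK and STAT signaling) and C4b (complement component 4). Socs3 had 3.89 to 5.86 FPKM in labelled knockouts, 11.34 to 25.20 in aged controls and 1.96 to 3.13 in young controls. C4b, whose reads may be shared with its near-identical copy C4a, had 0.55 to 1.39 FPKM in labelled knockouts, 2.23 to 9.50 in aged controls and 0.01 to 0.32 in young controls. By single boundaries, 181 genes (1.60%) had every labelled knockout under every aged control, 518 (4.57%) had every aged control over every young control, and 247 (2.18%) had every labelled knockout over every young control.

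Clu was next compared between sexes, which had not been used to choose it. Sex was read from the library names, and in each group the male libraries carried the lower replicate numbers, so anything that followed those numbers cannot be told apart from sex. Female libraries averaged 53.1 FPKM and male libraries 61.2 FPKM among labelled knockouts. Female libraries averaged 110 FPKM and male libraries 151 FPKM among aged controls. The 2 female aged controls lay at 102.73 and 117.67 FPKM, under all 3 male aged controls at 144.78 to 161.01 FPKM. Among young controls the means were 17.9 FPKM in female and 18.2 FPKM in male libraries. Female minus male was -0.24 in labelled knockouts, -0.45 in aged controls and -0.02 in young controls.

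With group in the model, female minus male Clu was -0.24 (SE 0.12), which did not pass the limma test (adjusted p = 0.204), while 12.9% of tested genes passed it, 9.67% as higher and 3.27% as lower in female libraries. Without labelled knockout 5, whose Clu was the highest of its group and which stands apart in its share of protein-coding reads, the difference was -0.30 and passed (limma adjusted p = 0.0372). Whether the sexes differed more in one group than in another was tested with an interaction term, which gave a limma adjusted p of 0.891 for Clu. The interaction was called for 0 of 11345 genes in limma, with 790 genes (6.96%) at an unadjusted p under 0.05 and for 0 genes by voom on the recovered reads, with 835 at an unadjusted p under 0.05.

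Within groups, Clu moved with measures of the whole library. The correlation of its deviations from the group means with those of the summed FPKM was 0.74 over the 15 libraries, and with those of the share of reads outside protein-coding genes it was 0.56. The summed FPKM was 344814 to 628740 in labelled knockouts, with the top values in replicates 2 and 5, 345745 to 479849 in aged controls and 339153 to 412258 in young controls. With the share of reads outside protein-coding genes as a covariate, the Clu differences were -1.40 for labelled knockouts minus aged controls, 2.80 for aged minus young controls and 1.40 for labelled knockouts minus young controls. Without labelled knockout 5 the mean of that group was 52.6 ± 11.3 FPKM (SD, n = 4), and without both labelled knockouts 2 and 5 it was 51.6 ± 13.6 FPKM (SD, n = 3).

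**Figure D2:**
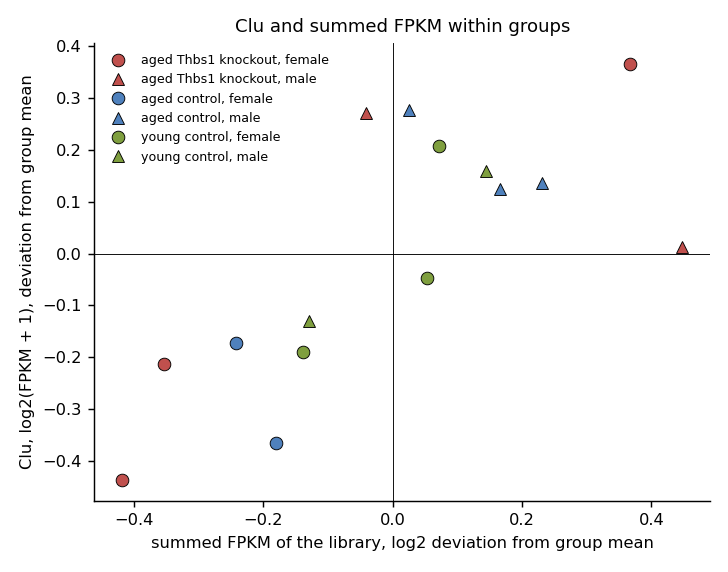
Deviation of Clu from its group mean in log2(FPKM + 1) (vertical axis) against the deviation of the summed FPKM of the same library in log2 (horizontal axis), for 15 libraries colored by group, circles female and triangles male. Points run from the lower left to the upper right with r = 0.74, and labelled knockouts 2 and 5 lie farthest to the right.

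The genes most like Clu were ranked by Pearson's r of log2(FPKM + 1) over the 15 libraries, among 9722 tested genes with ordinary gene names that are not sex-linked. Because the groups differ in Clu, this r is driven by group differences as well as by single libraries, and the points share their library's depth and composition. The 10 highest lay between 0.94 and 0.98, against a median of -0.04 over all tested genes, and 44 tested genes had an r over 0.9. In order they were Rhoj, Sbspon, Gpr183, Cldn5, Nupr1, Pde9a, Phactr1, Rcvrn, Slc7a7 and Cdc42ep5. Of these 10, 3 kept the 3 groups apart without overlap, namely Rhoj, Pde9a and Rcvrn.

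Rhoj led with r = 0.98 (Spearman's rho 0.96) and had 8.48, 5.92, 5.94, 6.47 and 8.49 FPKM in labelled knockouts 1 to 5, 12.69, 11.77, 12.69, 10.34 and 8.89 in aged controls 1 to 5, beside 3.27, 5.15, 4.06, 3.66 and 3.96 in young controls 1 to 5. Its groups did not overlap, but the gap between labelled knockout 5 and aged control 5 was small. Sbspon, a secreted protein with somatomedin B and thrombospondin domains, had 5.63, 3.42, 4.35, 4.09 and 9.59 FPKM in labelled knockouts, 23.35, 27.93, 23.05, 16.01 and 6.01 in aged controls and 0.59, 0.61, 0.60, 1.15 and 0.42 in young controls (r = 0.97). Here aged control 5 fell within the range of the labelled knockouts. Gpr183, a receptor for oxysterols that guides the movement of immune cells, had 2.43 to 14.88 FPKM in labelled knockouts (median 7.19), 12.33 to 32.78 in aged controls (median 27.91) and 0.61 to 1.38 in young controls (median 0.92).

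Cldn5, a tight junction protein, had 31.73, 18.26, 12.55, 12.84 and 17.69 FPKM in labelled knockouts 1 to 5, 86.32, 95.29, 89.61, 32.38 and 19.61 in aged controls 1 to 5, beside 3.09, 3.13, 3.36, 2.93 and 2.28 in young controls 1 to 5. Aged controls 4 and 5, the female ones, stood well under the other 3 for this gene. Nupr1, a chromatin-binding protein induced by cell stress, had 26.21 to 30.92 FPKM in labelled knockouts 1 to 4 and 75.62 in labelled knockout 5, against 70.04 to 97.30 in aged controls and 10.99 to 16.47 in young controls. Rcvrn had 0.74 to 4.24 FPKM in labelled knockouts, 8.57 to 17.26 in aged controls and 0.10 to 0.52 in young controls, the highest rho of the 10 at 0.98. The other members were Pde9a, Phactr1 (which binds actin and protein phosphatase 1), Slc7a7 (a subunit of a transporter of basic amino acids) and Cdc42ep5 (an effector of the GTPase Cdc42), whose r lay between 0.94 and 0.95.

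Single libraries recurred at the edges of these genes. Aged control 5 was the lowest aged control for 8 of the 10, and labelled knockout 5 was the highest labelled knockout for 7 of the 10. Clu itself had its lowest aged control value and its highest labelled knockout value in the same libraries. Because the 10 genes were ranked by r to Clu over these libraries, such shared edges follow in part from the ranking. The share of all tested genes with these edges is not given here, so the counts have no background. Without aged control 5, 6 of the 10 genes stayed among the 10 most like Clu.

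**Figure D3:**
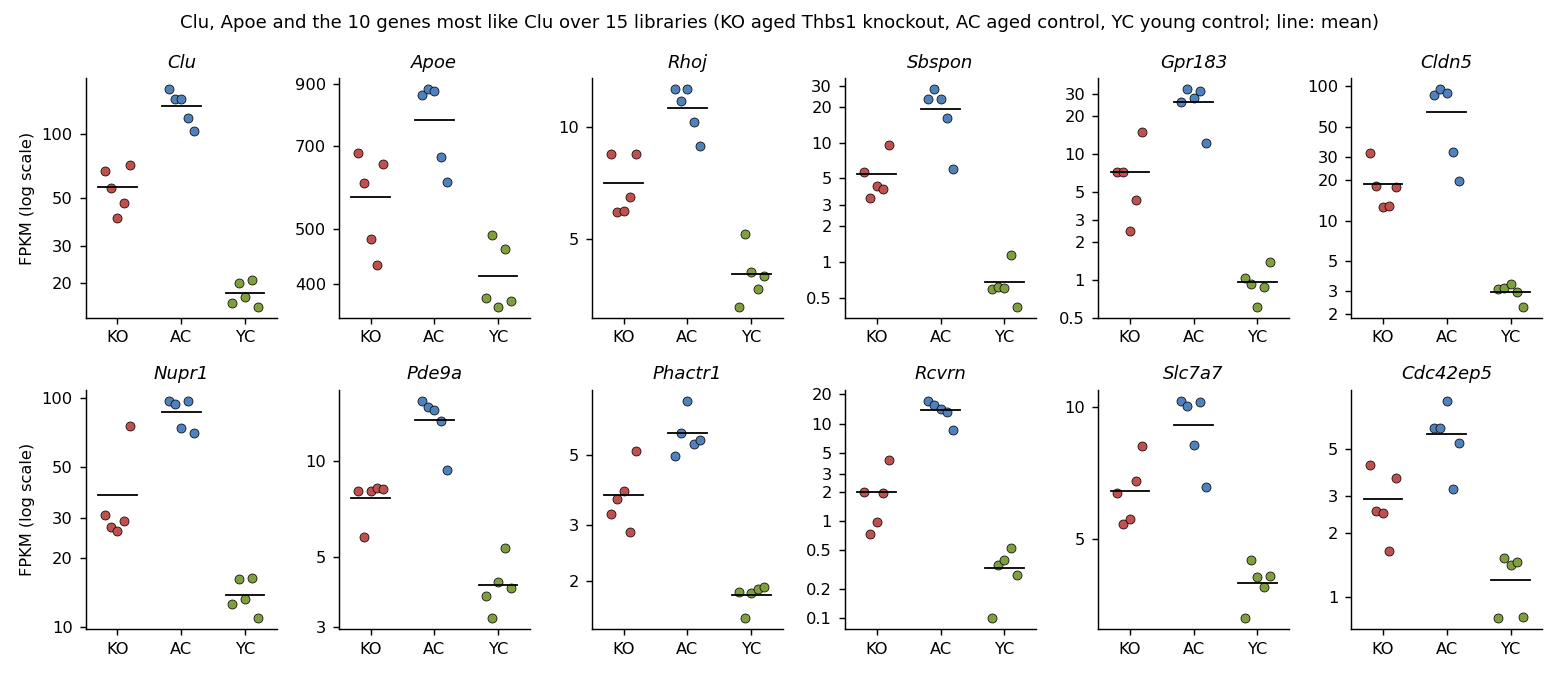
FPKM on a log scale (vertical axis, each panel with its own range) of Clu, Apoe and the 10 genes with the highest r to Clu, by group (KO, labelled knockouts; AC, aged controls; YC, young controls), with 1 point per library in replicate order and a line at the group mean. In every panel the aged controls have the highest and the young controls the lowest mean.

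The genes that ran most against Clu were Haao (an enzyme of tryptophan breakdown, r = -0.95), Arhgap30 (a GTPase-activating protein, -0.94), Rassf4 (a Ras-association protein, -0.94), Ncf4 (a subunit of the phagocyte NADPH oxidase, -0.92) and Pacc1 (a proton-activated chloride channel, -0.92). Haao had 2.70, 5.42, 4.18, 3.09 and 2.07 FPKM in labelled knockouts 1 to 5, 1.81, 1.83, 1.14, 2.54 and 1.89 in aged controls 1 to 5, beside 7.15, 8.01, 8.42, 8.37 and 9.40 in young controls 1 to 5. Every young control lay above all other libraries for this gene, while labelled knockouts and aged controls overlapped.

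When group means were taken out first, other genes led. The 5 with the highest r of deviations were Tradd (an adaptor of TNF receptor 1, 0.94), Rilpl2 (a Rab-binding protein, 0.94), Spr (the last enzyme of tetrahydrobiopterin synthesis, 0.94), Npc2 (a lysosomal cholesterol carrier, 0.93) and Commd5 (a COMM domain protein, 0.92), and 0 of them were among the 10 above. Tradd had 42.27, 40.82, 31.51, 33.71 and 52.21 FPKM in labelled knockouts, 48.81, 48.37, 48.76, 38.43 and 33.42 in aged controls and 30.28, 39.12, 36.83, 37.12 and 30.60 in young controls. Its groups overlapped throughout, while its order of libraries within each group was close to that of Clu. The 10 genes with the highest overall r had an r of deviations of 0.23 (Phactr1) to 0.79 (Rhoj).

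Thbs1 itself was not like Clu, with r = -0.21, rho = -0.32 and an r of deviations of -0.50 over the same 15 libraries. It ranked 6880 of 11344 by r. The split of Thbs1 between female and male libraries given above enters these values.

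The wider clusterin pathway was read from 7 lists of 97 genes, of which 64 passed the filter on low values. In labelled knockouts against aged controls, 0 of the 64 rose and 10 fell in the limma test, where 0.361% of all tested genes rose and 1.19% fell. In aged against young controls, 5 rose and 1 fell, where 3.18% of all tested genes rose and 1.23% fell. In labelled knockouts against young controls, 0 rose and 3 fell, where 1.01% of all tested genes rose and 0.617% fell. The 10 that fell and the 5 that rose include Serping1, which passed the filter only through the aged controls. Without aged control 1 the first count was 5 instead of 10, and it was 6 without any 1 of aged controls 2, 3 and 4 or labelled knockout 2. Over all tested genes, 95, 102 and 115 were called in that comparison without aged control 1, 2 or 3, against 176 with all libraries. Without aged control 5, 10 of the 64 passed in aged against young controls. Over all tested genes 943 then passed, against 501 with all libraries. The medians of the 64 differences were -0.21, 0.02 and -0.27 in these comparisons, beside -0.03, -0.02 and -0.06 over all tested genes. The comparisons share their control samples, and 5 of the libraries enter each pair of them.

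**Figure D4:**
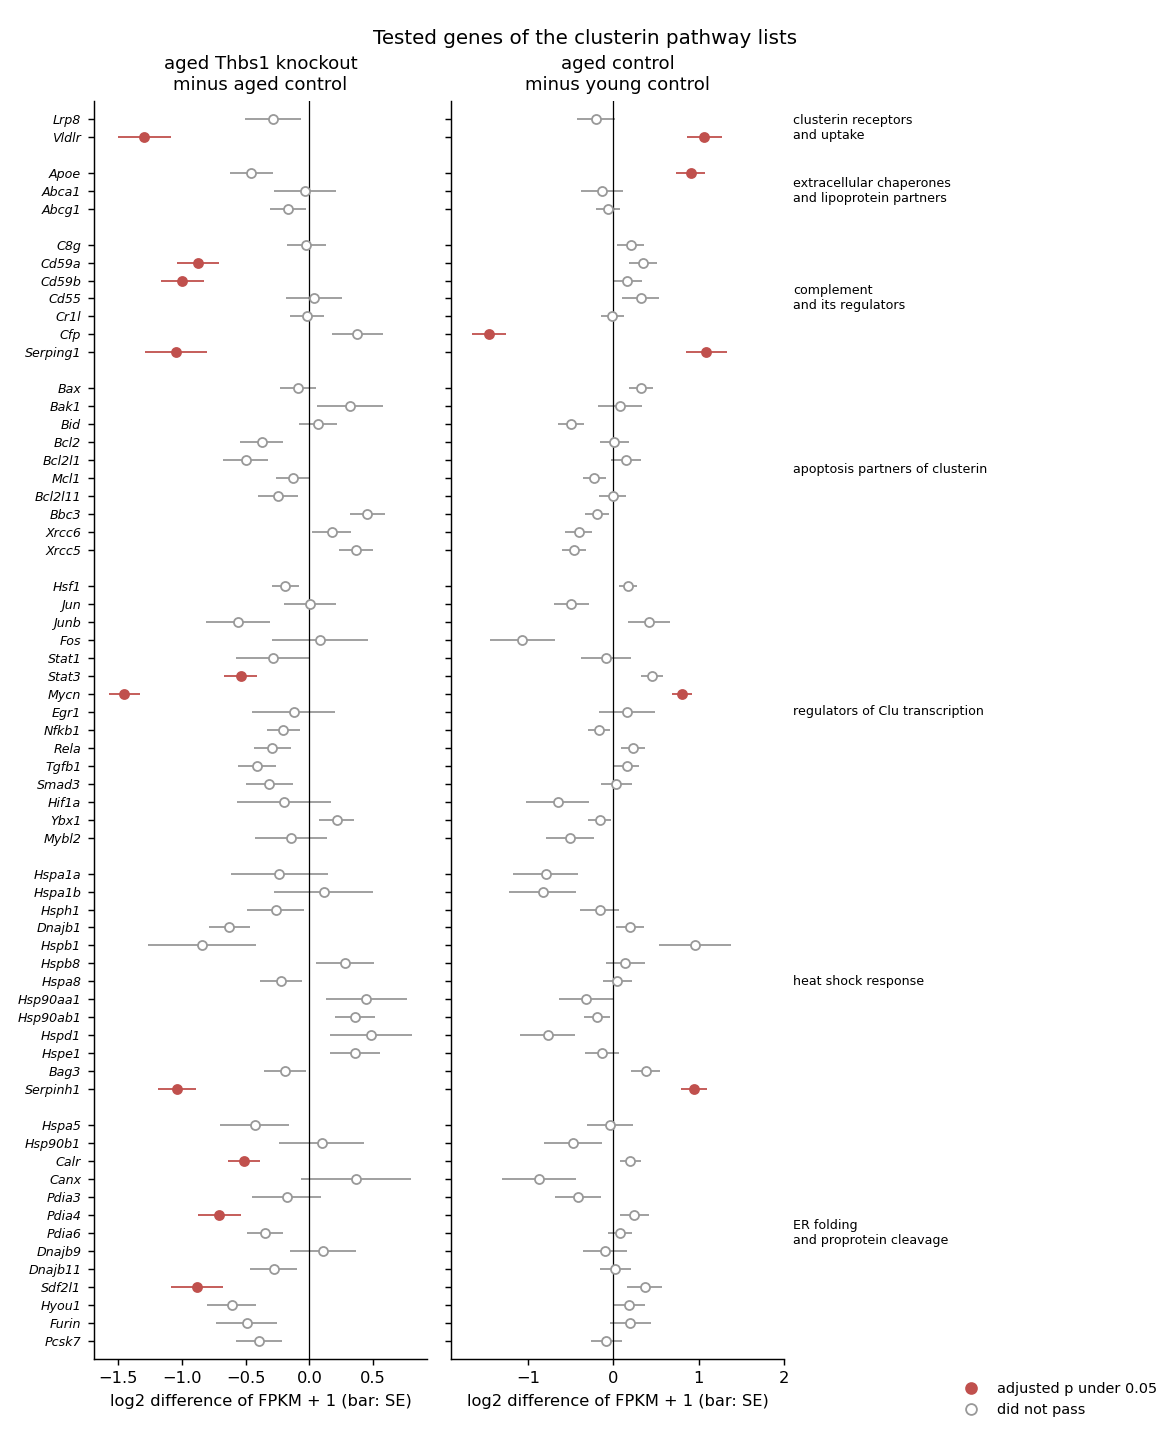
Difference in log2(FPKM + 1) with its SE (horizontal axes) of tested genes of the 7 clusterin pathway lists, for labelled knockouts minus aged controls (left) and aged minus young controls (right). Filled red points have a limma adjusted p under 0.05; 10 lie to the left of 0 in the left panel, and 5 to the right and 1 to the left of 0 in the right panel.

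Of the receptors that take clusterin up, 3 of 7 were tested. Vldlr, the very low density lipoprotein receptor, had 0.74, 0.68, 1.69, 1.09 and 1.06 FPKM in labelled knockouts 1 to 5, 6.32, 3.81, 2.56, 5.79 and 2.55 in aged controls 1 to 5, beside 1.36, 1.60, 1.47, 1.44 and 1.04 in young controls 1 to 5. All aged controls lay above every other library, and labelled knockouts overlapped young controls. Vldlr fell by 1.30 in labelled knockouts against aged controls (SE 0.21, limma adjusted p = 0.00187) and rose by 1.06 in aged against young controls (SE 0.21, limma adjusted p = 0.00432). Its difference between labelled knockouts and young controls was -0.23 (limma adjusted p = 0.497). Lrp8, known as ApoER2, passed in no comparison. Lrp1, Lrp2, Trem2 and Plxna4 averaged under 1 FPKM and were not tested.

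Among secreted chaperones and lipoprotein partners, 3 of 15 were tested, and Apoe was the one that passed. Apoe encodes apolipoprotein E, which shares lipoprotein particles and receptors with clusterin. It had 681.58, 602.92, 479.75, 432.23 and 650.34 FPKM in labelled knockouts 1 to 5, 860.57, 880.70, 875.42, 670.31 and 604.95 in aged controls 1 to 5, beside 377.58, 487.50, 364.82, 461.51 and 373.39 in young controls 1 to 5. Every aged control lay above every young control, and labelled knockouts overlapped both. Apoe rose by 0.91 in aged against young controls (SE 0.17, limma adjusted p = 0.0033). Labelled knockouts minus aged controls was -0.46 (limma adjusted p = 0.239), and labelled knockouts minus young controls was 0.45 (limma adjusted p = 0.16).

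Apoe followed Clu from library to library. Its r to Clu was 0.93 (18th of 11344 genes) and its r of deviations 0.91 (17th), a closeness noticed after the values were seen. Apoe had more FPKM than Clu in each library, by a factor of 9.10 to 11.8 in labelled knockouts, 5.34 to 6.08 in aged controls and 21.1 to 24.3 in young controls. The ratio of the genes kept to a narrow band within each group. These ranges did not overlap between groups, but Clu was chosen for its group differences. The differences of the ratio between groups largely follow from that choice and are no result of their own.

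Of the complement genes, whose terminal complex clusterin binds, 7 of 19 were tested. Cfp, which encodes properdin, a stabilizer of the alternative pathway convertase, had 3.19, 2.75, 1.83, 1.92 and 3.44 FPKM in labelled knockouts, 2.04, 1.77, 0.97, 2.59 and 1.65 in aged controls and 4.94, 5.07, 9.32, 7.70 and 6.61 in young controls. Young controls lay above all other libraries. Cfp fell by 1.46 in aged against young controls (limma adjusted p = 0.000165) and by 1.08 in labelled knockouts against young controls (limma adjusted p = 0.0073). Serping1, the C1 inhibitor, had 0.25, 1.04, 0.31, 0.06 and 0.91 FPKM in labelled knockouts, 1.53, 1.27, 1.30, 2.29 and 4.87 in aged controls and 0.37, 0.61, 0.28, 0.46 and 0.42 in young controls. All aged controls were higher than all other libraries, at low levels. Its means were 0.514 FPKM in labelled knockouts, 2.25 in aged controls and 0.428 in young controls. It thus passed the filter on low values only through the aged controls, and its calls against them are not independent of that filter. Serping1 rose by 1.09 in aged against young controls (limma adjusted p = 0.0121). It fell by 1.05 in labelled knockouts against aged controls (limma adjusted p = 0.0327), a call lost without any 1 of 5 libraries, namely aged controls 1 and 4 and labelled knockouts 1, 3 and 4 (adjusted p = 0.0562 to 0.075).

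Cd59a and Cd59b encode membrane inhibitors of the terminal complex, and some reads may be shared between these related genes. Cd59a had 6.25, 9.64, 6.01, 5.96 and 10.02 FPKM in labelled knockouts, 12.42, 13.57, 13.98, 17.73 and 14.72 in aged controls and 11.61, 9.08, 14.34, 11.05 and 10.09 in young controls. It fell by 0.88 in labelled knockouts against aged controls (limma adjusted p = 0.00835). Cd59b, under 1 FPKM in every labelled knockout and between 1.45 and 3.13 FPKM in all controls, fell by 1.0 against aged controls (limma adjusted p = 0.00311). Cd59b also fell by 0.83 in labelled knockouts against young controls (limma adjusted p = 0.0144), a call lost without young control 3 (adjusted p = 0.055).

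Of the 16 genes listed as regulators of Clu transcription, 15 were tested. Mycn encodes N-Myc, a transcription factor that has been described as a repressor of clusterin in human neuroblastoma cells. It had 62.18, 45.30, 57.70, 51.57 and 51.76 FPKM in labelled knockouts 1 to 5, 166.55, 131.94, 150.40, 160.55 and 133.12 in aged controls 1 to 5, beside 74.43, 80.23, 83.50, 89.69 and 94.53 in young controls 1 to 5. The groups did not overlap, and the labelled knockouts were the lowest. Mycn fell by 1.45 in labelled knockouts against aged controls (limma adjusted p = 9.86e-07), rose by 0.81 in aged against young controls (limma adjusted p = 0.000361) and fell by 0.65 in labelled knockouts against young controls (limma adjusted p = 0.00732). Over the 15 libraries its r to Clu was 0.48, and its r of deviations 0.14. Stat3, a transcription factor downstream of cytokine receptors, had 31.63 to 45.11 FPKM in labelled knockouts, 50.10 to 61.44 in aged controls and 36.77 to 48.67 in young controls. It fell by 0.54 in labelled knockouts against aged controls (limma adjusted p = 0.0403), a call lost in 10 of the 15 omissions of 1 library, with adjusted p up to 0.124.

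Of the heat shock genes, 13 of 14 were tested and Serpinh1 passed. It encodes HSP47, the collagen chaperone of the endoplasmic reticulum. It had 6.30, 3.84, 3.75, 4.44 and 3.53 FPKM in labelled knockouts, 10.80, 11.17, 10.20, 9.53 and 7.91 in aged controls and 4.70, 5.23, 4.83, 4.78 and 3.80 in young controls. Aged controls lay above all other libraries, and labelled knockouts overlapped young controls. Serpinh1 fell by 1.04 in labelled knockouts against aged controls (limma adjusted p = 0.000865) and rose by 0.94 in aged against young controls (limma adjusted p = 0.000826). The other 12, among them Hspa1a and Hsp90aa1, passed in no comparison.

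The genes that fold and cleave secreted proteins were represented by 13 of 15. Of these, 3 fell in labelled knockouts against aged controls, where 1.19% of all tested genes fell. The median difference of the 13 in that comparison was -0.40, beside -0.03 over all tested genes. Sdf2l1, a chaperone partner of the endoplasmic reticulum, fell by 0.88 (limma adjusted p = 0.0327), Pdia4, a disulfide isomerase, by 0.71 (limma adjusted p = 0.0392) and Calr, a lectin chaperone, by 0.51 (limma adjusted p = 0.0478). These calls were lost in 6, 12 and 13 of the 15 omissions of 1 library, with adjusted p up to 0.111, 0.0919 and 0.125. Furin and Pcsk7, which cleave proproteins, did not pass. Of the 13, 0 passed in aged against young controls, where 4.42% of all tested genes did. In labelled knockouts against young controls 0 passed, where 1.63% of all tested genes did. Of the apoptosis partners, 10 of 11 were tested, among them Bax, Bcl2l1 and the Ku genes Xrcc5 and Xrcc6, and 0 passed in limma or voom in any comparison. At an unadjusted p under 0.05 in limma, 4 of the 10 stood in labelled knockouts against aged controls, 4 in aged against young controls and 3 in labelled knockouts against young controls. The share of all tested genes under that threshold is not given here, so these counts cannot be set against a background.

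Genes listed in the field as higher in aged HSCs were counted in the same way. Of 30 such genes, Clu not counted, 28 were tested. Between labelled knockouts and aged controls 8 fell and 0 rose, with a median difference of -0.54, where 1.19% of all tested genes fell. With sex as a covariate 13 fell, where 1.57% of all tested genes did. Between aged and young controls 21 rose and 0 fell, with a median of 1.29, where 3.18% of all tested genes rose. Between labelled knockouts and young controls 9 rose and 0 fell, with a median of 0.63, where 1.01% of all tested genes rose. Without young control 1 the number was 5, and 0.511% of all tested genes rose. The 8 that fell and the 21 that rose include Zswim5, which passed the filter on low values only through the aged controls. Its means were 0.884 FPKM in labelled knockouts, 2.54 in aged controls and 0.832 in young controls. Gpr183 and Nupr1 are on this list and also among the 10 genes most like Clu.

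Single members of this list differed in how far the labelled knockouts stood from the aged controls. Ehd3, an endocytic recycling protein, had 17.23 to 34.67 FPKM in labelled knockouts, 62.37 to 87.82 in aged controls and 15.21 to 19.61 in young controls. It fell by 1.42 in labelled knockouts against aged controls (SE 0.17, limma adjusted p = 9.38e-05) and rose by 2.05 in aged against young controls (SE 0.17). Plscr2, a phospholipid scramblase, had 3.86 to 5.90 FPKM in labelled knockouts 1 to 4 and 18.61 in labelled knockout 5, against 18.02 to 33.17 in aged controls. Mt1, a metal-binding metallothionein, had 109.01 to 311.65 FPKM in labelled knockouts, 120.07 to 196.24 in aged controls and 19.99 to 37.69 in young controls. Mt1 differed between labelled knockouts and aged controls by -0.01 (SE 0.23), beside -1.25 (SE 0.16) for Clu.

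The HSC markers themselves were not level across the groups. Ly6a (Sca-1) fell by 1.12 in labelled knockouts against aged controls (limma adjusted p = 0.00432), the one of 10 to pass, where 1.19% of all tested genes fell. In aged against young controls 4 of 10 rose, where 3.18% of all tested genes did, namely Procr (the endothelial protein C receptor, 1.01), Ly6a (0.88), Hoxb5 (0.70) and Esam (0.54). Procr had an r to Clu of 0.88 and an r of deviations of 0.87. The Hoxb5 and Esam calls were lost in 7 and 4 of the 15 omissions of 1 library.

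Levels of markers of other cells were read beside Clu. The 9 stromal and endothelial markers summed to 7.19 to 12.7 FPKM in labelled knockouts, 6.95 to 14.5 in aged controls and 7.43 to 12.4 in young controls, and 5 of them never exceeded 1 FPKM in any library. The 8 macrophage and dendritic markers summed to 7.32 to 14.8 FPKM in labelled knockouts, 7.45 to 13.8 in aged controls and 9.19 to 15.4 in young controls. The 7 megakaryocyte and platelet markers summed to 166 to 333 FPKM in labelled knockouts, 277 to 1939 in aged controls and 363 to 474 in young controls. Of these, Itga2b (integrin alpha IIb) fell by 1.80 in labelled knockouts against aged controls (limma adjusted p = 0.00101). Itga2b rose by 1.01 in aged against young controls (limma adjusted p = 0.0381), a call lost in 9 of the 15 omissions of 1 library. Ppbp, a platelet chemokine gene, went the other way with age. It had 1.76 to 5.59 FPKM in labelled knockouts, 2.30 to 12.63 in aged controls and 9.0 to 26.43 in young controls. Ppbp fell by 1.49 in aged against young controls (limma adjusted p = 0.0117) and by 1.92 in labelled knockouts against young controls (limma adjusted p = 0.00455), and both calls stayed in all 15 omissions of 1 library. The top sum belonged to aged control 5, where Pf4 (platelet factor 4) reached 1579.13 FPKM. For T and NK cell markers the sums were 29.1 to 61.1 FPKM in labelled knockouts, 67.2 to 134 in aged controls and 53.1 to 104 in young controls.

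Of these 4 markers, 2 were tested. Klrb1c (NK1.1) fell by 1.38 in labelled knockouts against aged controls (limma adjusted p = 0.0207) and rose by 2.34 in aged against young controls (limma adjusted p = 8.69e-05). The first of these calls was lost in 3 of the 15 omissions of 1 library. Its difference between labelled knockouts and young controls, 0.95, did not pass (limma adjusted p = 0.107). Nkg7, a granule gene of cytotoxic cells, passed in no comparison, with differences of -0.96 in labelled knockouts minus aged controls (limma adjusted p = 0.1), 0.25 in aged minus young controls (limma adjusted p = 0.603) and -0.70 in labelled knockouts minus young controls (limma adjusted p = 0.168). B cell markers summed to 29.8 to 55.5 FPKM in labelled knockouts, 36.2 to 64.0 in aged controls and 34.3 to 45.2 in young controls, and neutrophil markers to 3.31 to 41.9, 4.21 to 13.8 and 6.33 to 18.4 FPKM in the same groups. Erythroid markers summed to 43.6 to 243 FPKM in labelled knockouts, 61.6 to 368 in aged controls and 80.8 to 171 in young controls. Of these, Hbb-bt, an adult beta globin gene that may share reads with a near-identical copy, fell by 1.14 in labelled knockouts against young controls (limma adjusted p = 0.0424), a call lost in 9 of the 15 omissions of 1 library. Tested were 4 of 9 stromal and endothelial, 1 of 8 macrophage and dendritic, 1 of 5 B cell and 3 of 6 neutrophil markers. None of these passed the limma test between any groups. Of all tested genes, 4.42% passed between aged and young controls. Between labelled knockouts and aged or young controls, 1.55% and 1.63% did. With so few markers tested, the lack of calls does not show that these cells were level across the groups. The part of any of these cells in the level of Clu was not tested.

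Genes next to Clu on chromosome 14 were examined last. Within 500 kb, 14 other genes were in the table and 7 of them were tested. Their counts at an unadjusted p have no background, since the share of all tested genes under that threshold is not given here. Between labelled knockouts and aged controls 0 of 7 passed in limma and in voom, with 1 at an unadjusted p under 0.05 in each, while 1.55% of all tested genes passed in limma. Between labelled knockouts and young controls 0 of 7 passed in limma and in voom, with 2 at an unadjusted p under 0.05, while 1.63% of all tested genes passed in limma. Between aged and young controls 2 of 7 passed in limma, as did 4.42% of all tested genes, and 1 of 7 passed in voom. In each, 5 of 7 were at an unadjusted p under 0.05. In limma, 0 passed without any 1 of aged controls 1 to 3 or young controls 1, 3, 4 and 5. The nearest, Gulo, an enzyme of vitamin C synthesis 5.24 kb away, had 0.16 to 2.60 FPKM in labelled knockouts, 1.28 to 3.06 in aged controls and 0.31 to 1.18 in young controls. Its difference was -0.49 in labelled knockouts minus aged controls (limma adjusted p = 0.428) and 0.70 in aged minus young controls (limma adjusted p = 0.136).

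Of the pair that passed, Ptk2b, the focal adhesion kinase relative PYK2, had 32.43 to 50.91 FPKM in labelled knockouts, 50.90 to 67.95 in aged controls and 37.82 to 44.70 in young controls. It rose by 0.49 in aged against young controls (limma adjusted p = 0.032), a call lost in 8 of the 15 omissions of 1 library. Pbk, a kinase of dividing cells, moved the other way, with a difference of -0.92 in aged minus young controls (limma adjusted p = 0.0242). Aged control 5 had 46.60 FPKM of Pbk, against 16.59 to 19.40 in the other 4 aged controls and 33.98 to 45.34 in young controls, and without that library the difference was -1.19 (limma adjusted p = 0.000103). The Pbk call was lost in 7 other omissions.

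**Figure D5:**
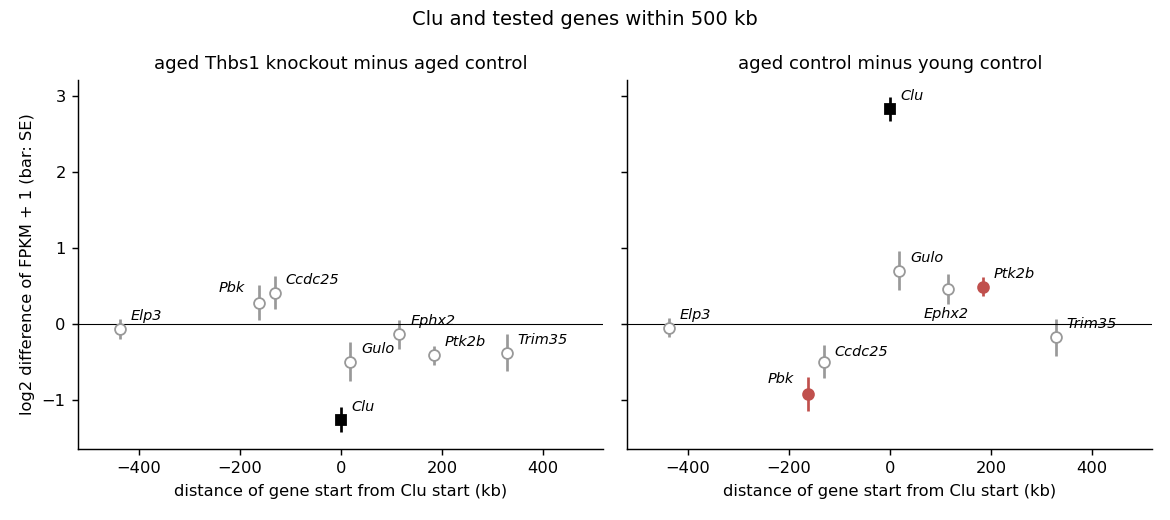
Difference in log2(FPKM + 1) with its SE (vertical axis) of Clu (black square) and the 7 tested genes within 500 kb, by distance of their lowest coordinate from that of Clu in kb (horizontal axis), for labelled knockouts minus aged controls (left) and aged minus young controls (right). Clu stands at -1.25 and 2.82, while no neighbor passes 0.92 in size, and filled red points (Pbk and Ptk2b) have a limma adjusted p under 0.05.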

How the data were processed

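Per the labels' protocols, sorted HSCs went into TRIzol-LS and libraries were made from 2 ng of total RNA with SMART-Seq v4. The authors deposited FPKM, rounded to 2 decimals, in 1 table of 20696 genes by 15 libraries. Per the submitters' processing notes, FastQC 0.11.5, STAR and edgeR were used on GRCm38 (mm10); the sources used here do not give the counting settings, strand included. All genes were found in the GENCODE M21 annotation.

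Reads were recovered from the rounding of the FPKM of genes of at most 250 nucleotides, of which at least 99.4% of values were whole reads within 0.1 reads, and at least 97.6% for genes of up to 500 nucleotides that were held out. In R 4.3.3, limma 3.58.1 with an intensity trend compared log2(FPKM + 1) of the 11345 genes that averaged 1 FPKM or more, with all 15 libraries in 1 fit. Tests were two-sided, with Benjamini-Hochberg adjustment over all tested genes and calls at an adjusted p under 0.05. A difference on this scale understates that of low genes. The fit was tested on simulated data.

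Named genes were Clu, Thbs1, the 10 genes with the highest and the 5 with the lowest r to Clu, the 5 with the highest r of deviations from group means, called list members (up to 4 per list and comparison) and tested neighbors. Other genes were named after their values were seen. Some single genes are not reported here. Clu, the lists and the tests were chosen with earlier results of these data known.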

Additional observations from a re-analysis of the deposited data

Results flagged for a closer look

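For the 54 genes followed most closely, each group of 5 libraries was checked for a single library far from the other 4, giving 162 groups, of which chance flags about 1 in 20. Labelled knockout 5 stood high for 5 genes. It had 75.62 FPKM of Nupr1 (26.21 to 30.92 in the other 4 of its group), 311.65 FPKM of Mt1 (109.01 to 151.42), 24.05 FPKM of Mt2 (6.18 to 7.41), 18.61 FPKM of Plscr2 (3.86 to 5.90) and 48.33 FPKM of Ramp2 (6.85 to 16.59). For Clu the same library was the highest of its group at 71.43 FPKM but was not far from the others. Aged control 5 stood high for Pbk at 46.60 FPKM (16.59 to 19.40 in the other 4) and for Serping1 at 4.87 FPKM (1.27 to 2.29).

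Labelled knockout 2 stood low for Pde9a at 5.76 FPKM, against 8.01 to 8.24 in the other 4. Among young controls, replicate 3 stood high for Thbs1 at 13.38 FPKM (0.70 to 3.95 in the others), replicate 4 high for Sbspon at 1.15 FPKM (0.42 to 0.61), replicate 2 low for Phactr1 at 1.53 FPKM (1.83 to 1.92) and replicate 1 low for Mt2 at 0.73 FPKM (1.32 to 1.46). No group of Clu had such a library.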

How the results depend on the processing

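Except under the grouping by GEO's descriptions, the 3 Clu differences kept their direction in every alternative run. Leaving out 1 library gave -1.34 to -1.14 for labelled knockouts minus aged controls, 2.76 to 2.92 for aged minus young controls and 1.48 to 1.68 for labelled knockouts minus young controls. It gave 95 to 229, 311 to 943 and 98 to 676 genes called in these comparisons, 5 to 9, 6 to 10 and 2 to 4 genes of the clusterin pathway, and 0 to 0, 0 to 2 and 0 to 1 neighbors. The sex difference in Clu lay between -0.30 and -0.18, the limma adjusted p of its interaction between 0.377 and 0.9998, and 6 to 10 of the like genes were shared. With descriptions as the source of groups, the Clu differences were 1.23, -1.13 and 0.10, with 0, 0 and 15 genes called, 0 of the pathway in all 3 comparisons and 0 neighbors in aged against young controls; the cause is the regrouping itself. Of 45 calls of named genes, 34 then changed sign. In aged minus young controls these were Apoe -0.45, Cfp 0.83, Ehd3 -0.86, Esam -0.34, Gpr183 -1.55, Hoxb5 -0.39, Itga2b -0.93, Klrb1c -1.03, Ly6a -0.78, Mt1 -0.48, Mycn -0.65, Nupr1 -1.18, Pbk 0.49, Ppbp 0.67, Procr -0.54, Ptk2b -0.33, Serping1 -0.42, Serpinh1 -0.66 and Vldlr -0.88. In labelled knockouts minus aged controls they were Calr 0.16, Cd59a 0.000316, Ehd3 1.12, Gpr183 1.61, Klrb1c 1.62, Ly6a 0.35, Mycn 0.14, Nupr1 1.46, Pdia4 0.22, Plscr2 1.98, Sdf2l1 0.00087, Serping1 0.58, Serpinh1 0.19, Stat3 0.19 and Vldlr 0.59.

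Other changes were as follows, and their cause was not tested. Without labelled knockouts 2 and 5, 1030 genes were called in aged against young controls, 6 pathway genes passed in labelled knockouts against aged controls, and the sex difference in Clu was -0.31 and passed (limma adjusted p = 0.0441). Sex as a covariate gave 429 genes in labelled knockouts against young controls. No filter on low values left 5 pathway genes in labelled knockouts against aged controls. Quantile normalization, voom on the recovered reads and the replicate block each left 1 neighbor in aged against young controls. With the share of reads outside protein-coding genes as a covariate (like voom, added after the data were seen), 1030 genes and 11 pathway genes were called in aged against young controls and 95 genes in labelled knockouts against young controls. Quantile normalization and Spearman's rho each kept 6 of the 10 like genes. Deviations of same-numbered libraries correlated at -0.46 to 0.53 between groups. With both signs present, these values cannot decide whether the replicate numbers pair the libraries. With the replicate block, 152, 499 and 158 genes were called in labelled knockouts against aged controls, aged against young controls and labelled knockouts against young controls, and 41 of the 45 named calls stayed. The 4 calls lost with the block were Calr (limma adjusted p = 0.0826) and Stat3 (0.0607) in labelled knockouts against aged controls, and Ptk2b (0.0539) and Itga2b (0.0516) in aged against young controls. Of these 45 calls, 32 stayed in every omission of 1 library. Voom on the recovered reads called 136, 465 and 156 genes in the same comparisons. It moved the median of all tested genes to -0.12 in labelled knockouts against young controls. Low levels, such as those of Vldlr, Serping1 and Cd59b, rest on few reads.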
